A study of Gallus gallus and Dromaius novaehollandiae with 40 samples.

Results

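The emu (Dromaius novaehollandiae) is a flightless bird with small wings. The comparison described here is between 2 tissues of its early embryo at the level of the wing bud, labelled splanchnopleure and lateral plate. Its members were chosen by their labels in the emu early count table: splanchnopleure 6 and pool, and lateral plate 1, 23 and 8, which are 5 of the 40 samples in the series. Stages are Hamburger and Hamilton (HH) stages of the chick. Both splanchnopleure libraries are labelled HH13, lateral plate 23 and 8 are labelled HH10, and lateral plate 1 is labelled HH13. The tissue and the stage therefore differ together, except against lateral plate 1. The same table holds 3 libraries of somatopleure, the outer layer (13, labelled HH10, and 53 and 5, labelled HH13). A matching chick (Gallus gallus) table holds 3 lateral plate libraries at HH10 and, at HH13, 3 libraries each of splanchnopleure and somatopleure. The labels give no genotype, strain, treatment or sex for any of them. They do not say what the pool was made of, or whether libraries came from separate embryos, so the p-values reflect how far these libraries vary, and part of that variation may be technical.

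Lateral plate mesoderm lies on both flanks of the embryo and splits around the body cavity. The outer sheet, with the surface ectoderm, forms the somatopleure, from which the limb buds and body wall grow. The inner sheet, with the endoderm, forms the splanchnopleure, which gives the smooth muscle and connective tissue of the gut, much of the heart, and the vessels of the yolk sac. Hedgehog ligands from the endoderm, BMP signals and transcription factors of the FOXF, GATA, HAND and TBX families are known to shape the splanchnic sheet, whereas PRRX, MSX and TBX factors are known in the somatic sheet and its limb buds. Because each tissue holds more than mesoderm, lists of marker genes for endothelium, blood, endoderm, surface ectoderm, somite and other neighbours were read beside the mesodermal genes.

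Total counts ran from 7800740 to 8601471 in the 5 libraries and from 7350786 to 8601471 over the 8 emu early libraries. The level of a gene is given in CPM, its counts divided by a library size that TMM scaling had corrected for composition. On the first principal component of the emu libraries, which held 49.2% of the variance, the splanchnopleure libraries lay at 73.09 and 55.03, the lateral plate libraries at -38.77, -18.75 and -15.92, and the somatopleure libraries from -23.27 to -11.17. Lateral plate 1 stood farthest from the splanchnopleure. It was the lowest of the 3 lateral plate libraries in 64.4% of the 547 genes that rose when it was left out of the fit, against 34.6% of all tested genes, and the highest in 61.6% of the 385 that fell, against 34.9%. Somatopleure and lateral plate separated on the second component (14.8% of the variance), at -13.14, -3.71 and -46.91 against 24.34, 13.96 and 16.31. Between them 0 of 10640 genes passed edgeR's test, 1107 had an unadjusted p under 0.05, and 140 were called by DESeq2.

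In the splanchnopleure, 1216 of the 10640 tested genes rose (11.4% of those tested) and 980 fell (9.21%), 2196 in all (20.6%), by edgeR's quasi-likelihood test at a Benjamini-Hochberg adjusted p under 0.05. Extracellular matrix, smooth muscle, endothelial and plasma protein genes were the lists with the most members risen for their size, and surface ectoderm and limb mesenchyme genes those with the most fallen. Each list count below is to be read beside the shares over all tested genes, 11.4% for rises and 9.21% for falls. A list near these shares does not stand out. The count of calls was 932, 1433 and 1235 without lateral plate 1, 23 or 8, 353 without splanchnopleure 6 (261 rises and 92 falls) and 1607 without the pool. Of the 2196 calls, 319 passed whichever of these libraries was left out. Against lateral plate 1 alone, the library of the same labelled stage, all 2196 had the same sign. Lateral plate 1 was among the libraries by which these genes were called, so the shared sign is no separate support. In bulk tissue, fewer cells of a type and less RNA per cell cannot be told apart.

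**Figure D1:**
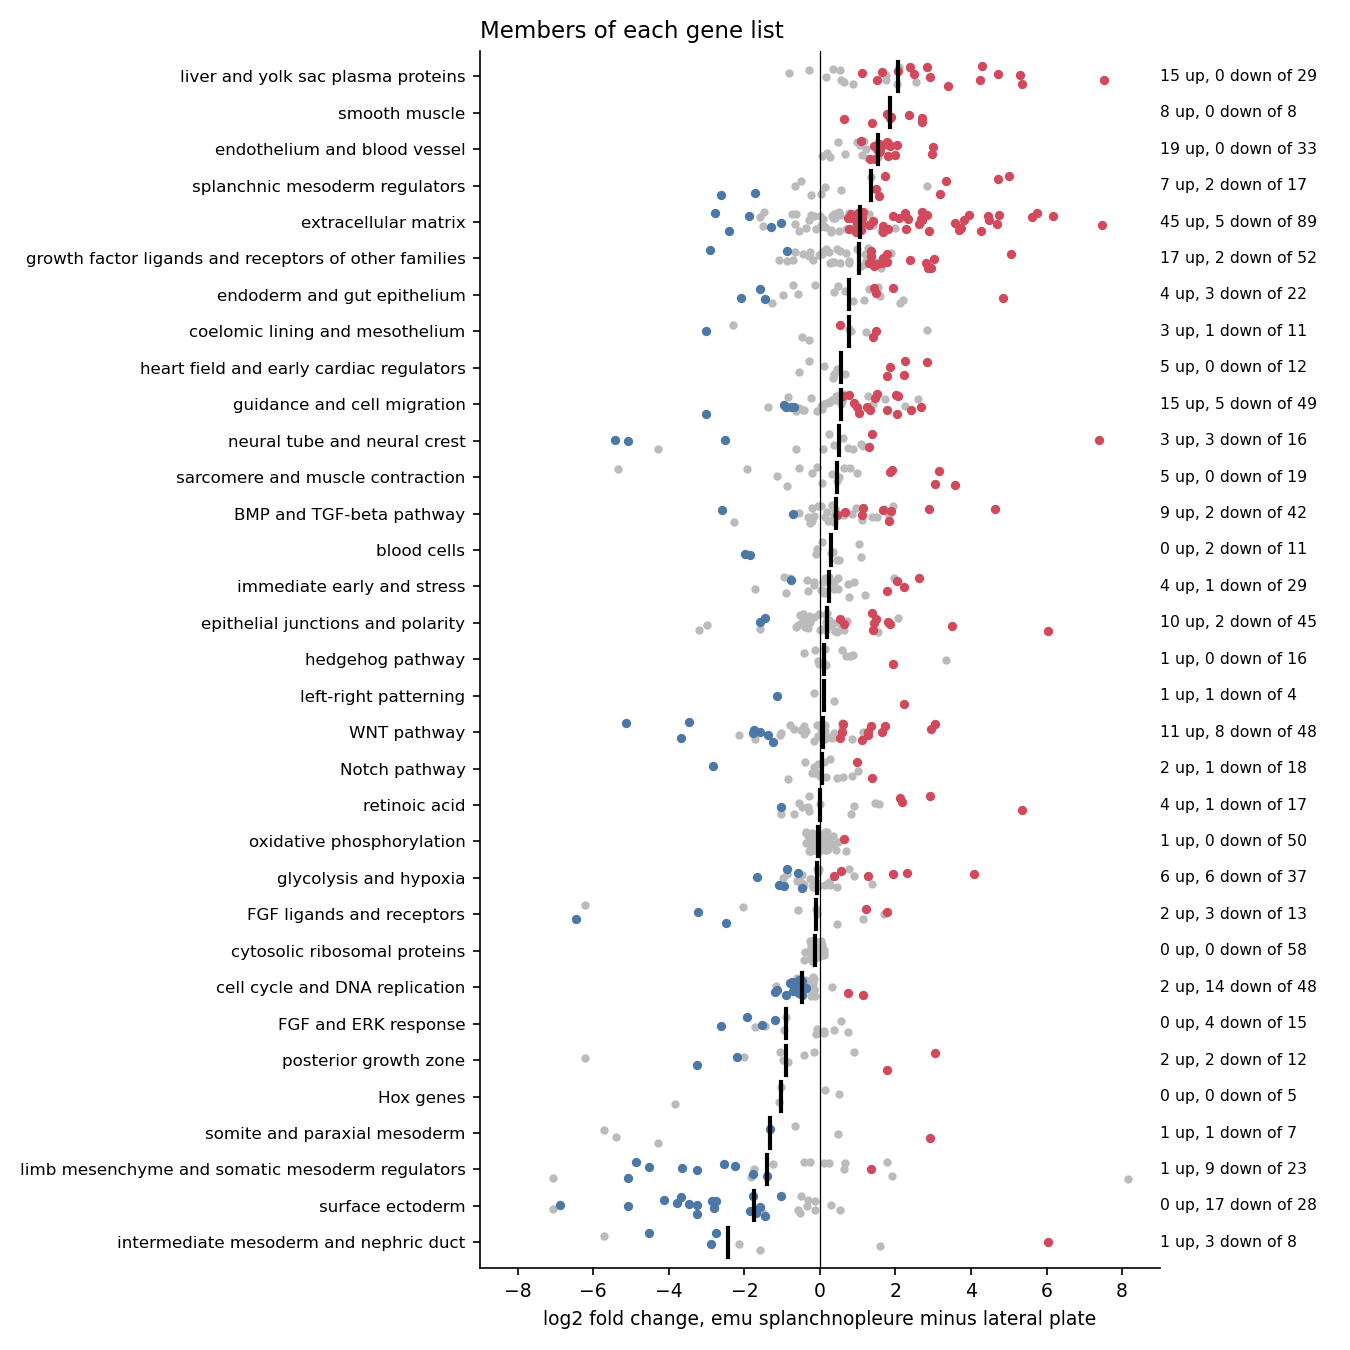
Log2 fold change, emu splanchnopleure minus lateral plate (horizontal axis), of each tested member of 33 gene lists, ordered by the list's median (black bar). Red points rose and blue points fell at an adjusted p under 0.05, grey points did not pass, a gene on several lists is drawn in each, and fitted values of genes with no count in a tissue depend on the prior count. Smooth muscle, plasma protein, endothelial and matrix lists lie to the right of 0, and surface ectoderm and limb mesenchyme lists to the left.

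Among regulators of splanchnic mesoderm, 7 of 17 tested genes rose and 2 fell, with a median log2 fold change of 1.35 beside 0.00 over all tested genes. HAND1, a basic helix-loop-helix factor of lateral mesoderm and heart, stood at 67.6, 213 and 235 CPM in lateral plate 1, 23 and 8 and at 656 and 480 CPM in splanchnopleure 6 and pool. The groups did not overlap, and HAND1 rose (log2 fold change of 1.73, SE 0.45, adjusted p = 0.0285). TBX20, a T-box factor of the heart, was at 1.14, 6.53 and 4.9 CPM in the lateral plate and 58.3 and 17.2 CPM in the splanchnopleure, again without overlap (log2 fold change of 3.17, SE 0.87, adjusted p = 0.0334). TCF21, a factor of the mesenchyme of visceral organs, went from 6.51, 11.2 and 13.5 CPM to 30.2 and 28.3 CPM (log2 fold change of 1.49, SE 0.42, adjusted p = 0.0356). Both splanchnopleure libraries held nearly the same TCF21 level, above every lateral plate library.

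The steepest rises in this list were those of MAF, a basic leucine zipper factor, and of 2 Mab-21-like genes. MAF had 0.457, 0.369 and 1.59 CPM in lateral plate 1, 23 and 8 and 39.1 and 13.5 CPM in splanchnopleure 6 and pool (log2 fold change of 5.01, SE 0.70, adjusted p = 0.00361). MAB21L1 had 0.229, 3.32 and 4.41 CPM and 93.8 and 44.5 CPM (log2 fold change of 4.71, SE 0.75, adjusted p = 0.00534). MAB21L2, known in the mouse for its part in the eye and ventral body wall, had 2.86, 22.9 and 24.6 CPM and 209.6 and 127 CPM (log2 fold change of 3.33, SE 0.70, adjusted p = 0.0138). Splanchnopleure 6 exceeded the pool for these genes, and lateral plate 1 held the lowest level of both Mab-21-like genes. OSR2, an odd-skipped zinc finger factor, rose from 6.28, 9.85 and 14.7 CPM to 19.98 and 40.4 CPM (log2 fold change of 1.55, SE 0.43, adjusted p = 0.0361). The members that fell were TSHZ1, a teashirt zinc finger factor, with 80.1, 55.5 and 53.9 CPM against 13.4 and 24.7 CPM (log2 fold change of -1.73, SE 0.35, adjusted p = 0.0117), and ISL1. ISL1, a LIM homeodomain factor known in the second heart field and the hindlimb, was low everywhere, at 6.51, 3.82 and 8.82 CPM in the lateral plate and 1.03 and 1.03 CPM in the splanchnopleure (log2 fold change of -2.61, SE 0.62, adjusted p = 0.0212). It was as low in somatopleure 13, 53 and 5, at 0.502, 1.91 and 1.315 CPM, and did not pass edgeR's test of splanchnopleure against somatopleure (adjusted p = 0.825).

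GATA4, GATA5 and GATA6 did not pass edgeR's test. DESeq2 called GATA4 and GATA6 but not GATA5. Without lateral plate 23, edgeR called GATA4 and GATA6 too (adjusted p = 0.0235 and 0.046). In the other fits with 1 library left out neither was called. GATA4, a zinc finger factor of heart and gut mesoderm, was at 0.229, 4.56 and 1.1 CPM in the lateral plate and 9.02 and 19 CPM in the splanchnopleure, without overlap (log2 fold change of 2.84, SE 0.90, adjusted p = 0.0541). GATA6 had 7.08, 37.7 and 19.5 CPM and 42.7 and 66.1 CPM (log2 fold change of 1.35, SE 0.57, adjusted p = 0.126), and GATA5 164, 243 and 206 CPM and 126 and 290.2 CPM, with overlap (log2 fold change of 0.03, SE 0.31, adjusted p = 0.961). FOXF1, NKX2-3, HAND2, NKX3-2, OSR1, WT1, MEF2C and BMP4 were not analysed here, and BARX1 and NKX2-5 had too few counts to be tested. Of the genes taken to mark the labelled tissue, HAND1 and TBX20 rose, GATA4, GATA5 and GATA6 did not pass and ISL1 fell. TBX20 and TCF21 (without 1, 23 or 8), OSR2 (without 1 or 23), ISL1 (without 1 or 8) and HAND1 (without 23) missed the threshold with 1 lateral plate library left out (adjusted p from 0.0534 to 0.11). So did HAND1, TBX20, TCF21, OSR2, MAB21L1, MAB21L2, ISL1 and TSHZ1 without splanchnopleure 6 (adjusted p from 0.0505 to 0.263) and HAND1, TCF21, OSR2 and ISL1 without the pool (adjusted p from 0.0513 to 0.237). MAF passed with any 1 of the 5 libraries left out. The list's count of rises was 4, 6, 5, 1 and 4 without lateral plate 1, 23, 8, splanchnopleure 6 and the pool in turn, and 6 against lateral plate 1 alone.

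**Figure D2:**
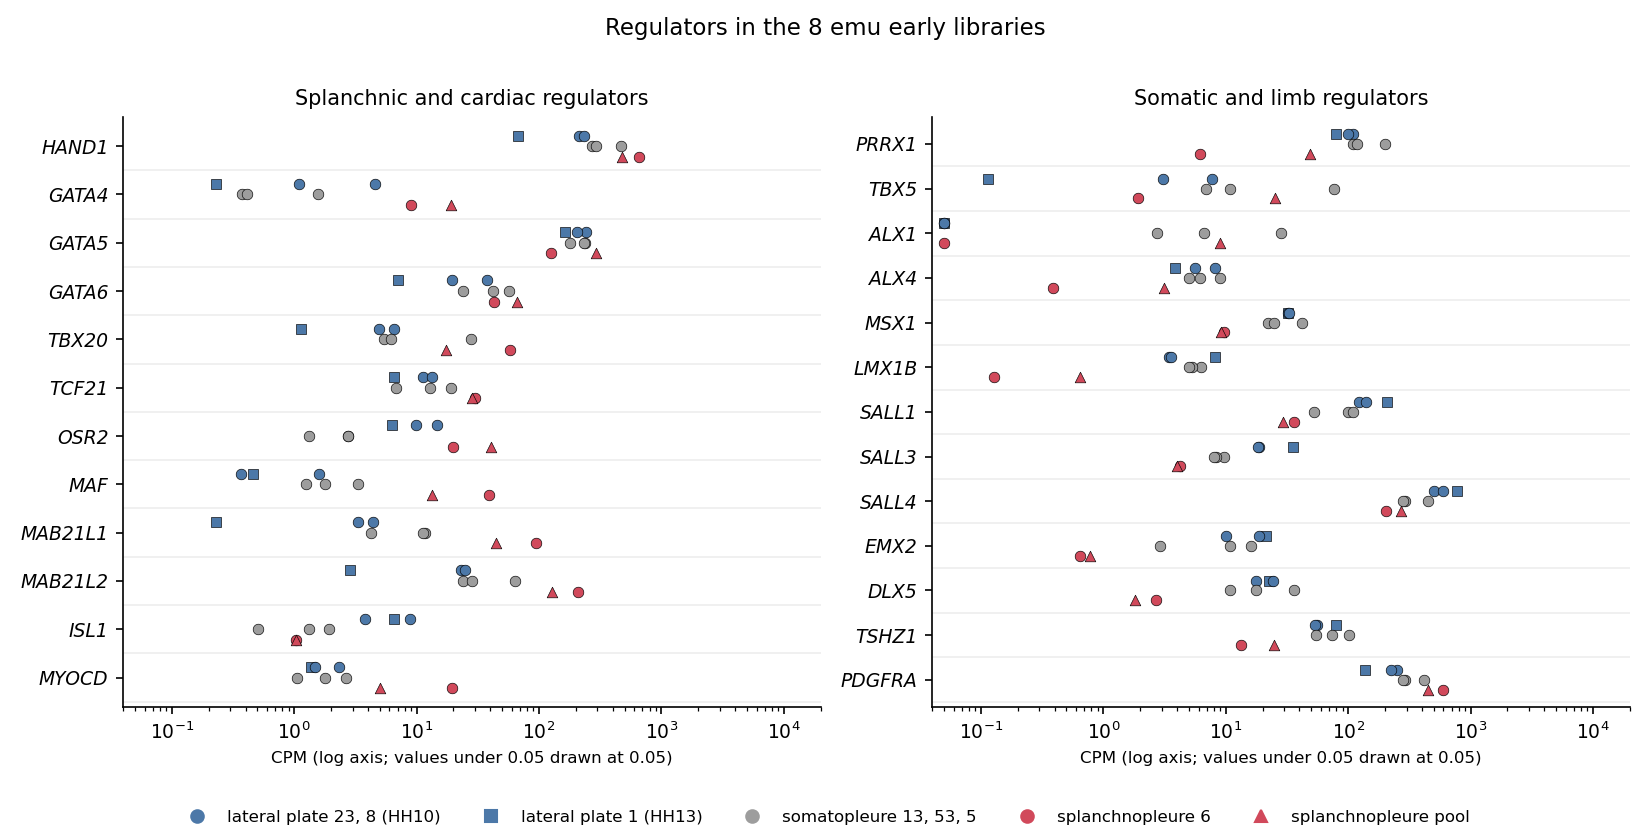
CPM on a log axis of splanchnic and cardiac regulators (left) and somatic and limb regulators (right) in each of the 8 emu early libraries. TSHZ1, counted in the text among the splanchnic regulators, is drawn on the right. Blue is lateral plate (square, lateral plate 1), grey somatopleure and red splanchnopleure (triangle, pool). HAND1, TBX20, MAF and both Mab-21-like genes lie higher in both splanchnopleure libraries than in any lateral plate library, while TBX5, ALX1 and PRRX1 differ between splanchnopleure 6 and pool.

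Smooth muscle genes were higher in the splanchnopleure, where all 8 tested members rose (median log2 fold change 1.86). Of sarcomere genes 5 of 19 rose (median 0.45) and of heart field and cardiac regulators 5 of 12 (median 0.55), and their other members did not pass. Among the sarcomere genes that did not pass, NEB, nebulin, had a log2 fold change of -1.14 (adjusted p = 0.175) and ACTC1, cardiac actin, of -0.56 (adjusted p = 0.289). TPM1, a tropomyosin, rose from 396, 565 and 624 CPM in lateral plate 1, 23 and 8 to 2259 and 1543 CPM in splanchnopleure 6 and pool (log2 fold change of 1.85, SE 0.22, adjusted p = 0.00255). CALD1, the actin-binding caldesmon, rose from 325, 281 and 373 CPM to 1551 and 846 CPM (log2 fold change of 1.88, SE 0.24, adjusted p = 0.00292), and TAGLN, transgelin, from 13.6, 17.1 and 23.4 CPM to 154 and 82.7 CPM (log2 fold change of 2.71, SE 0.40, adjusted p = 0.00434). None of these groups overlapped, which adds no support as the genes were named for their calls. Splanchnopleure 6 was above the pool in all 8 smooth muscle genes. MYH11, the smooth muscle myosin heavy chain, was at 3.66, 19 and 20.1 CPM and 88.4 and 58.2 CPM (log2 fold change of 2.37, SE 0.63, adjusted p = 0.0309), with lateral plate 1 the lowest.

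MYOCD, the coactivator of serum response factor that turns on smooth and cardiac muscle genes, rose from 1.37, 1.48 and 2.33 CPM to 19.6 and 5.05 CPM (log2 fold change of 2.83, SE 0.61, adjusted p = 0.0148). SRF itself, its partner, did not pass (log2 fold change of 0.10, SE 0.17, adjusted p = 0.708). Of the cardiac sarcomere, TNNT2, cardiac troponin T, had 0.229, 3.2 and 1.84 CPM in the lateral plate and 19.98 and 21.7 CPM in the splanchnopleure (log2 fold change of 3.57, SE 0.78, adjusted p = 0.016). RYR2, the calcium release channel of heart muscle, had 0.457, 0.862 and 0.49 CPM and 7.22 and 3.62 CPM (log2 fold change of 3.14, SE 0.60, adjusted p = 0.00974), and TTN, titin, 0.571, 0.369 and 1.35 CPM and 9.93 and 2.98 CPM (log2 fold change of 3.06, SE 0.72, adjusted p = 0.0202). These 3 genes stayed under 25 CPM in both splanchnopleure libraries. FHL2, a LIM domain protein of the heart, rose from 4.46, 1.97 and 4.29 CPM to 13 and 12.9 CPM (log2 fold change of 1.85, SE 0.38, adjusted p = 0.0119). MYH11 (without 1, 23 or 8), TTN (without 1 or 23), MYOCD (without 1) and TNNT2 (without 8) missed the threshold with 1 lateral plate library left out (adjusted p from 0.0502 to 0.0784). So did MYH11, MYOCD, TNNT2, RYR2, TTN and FHL2 without splanchnopleure 6 (adjusted p from 0.0764 to 0.22) and MYH11 without the pool (adjusted p = 0.0539). TPM1, CALD1 and TAGLN passed with any 1 of the 5 libraries left out. Smooth muscle rises numbered 5, 5, 6, 3 and 5 without lateral plate 1, 23, 8, splanchnopleure 6 and the pool, sarcomere rises 3, 3, 3, 1 and 4, and cardiac regulator rises 1, 3, 2, 0 and 3. In that order they numbered 5, 2 and 1 against lateral plate 1 alone.

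Of genes of the coelomic lining and mesothelium, 3 of 11 tested genes rose and 1 fell. PODXL, podocalyxin, rose from 167, 528 and 433 CPM to 981 and 999 CPM (log2 fold change of 1.40, SE 0.36, adjusted p = 0.028), and MSLN, mesothelin, from 63.8, 59.6 and 51.8 CPM to 87.5 and 80.2 CPM (log2 fold change of 0.52, SE 0.14, adjusted p = 0.0301). MSLN had much the same level in somatopleure 13, 53 and 5 (79.5, 78.5 and 92.7 CPM), and edgeR's test of splanchnopleure against somatopleure did not call it (adjusted p = 0.984). TCF21, already described, is the remaining member that rose. SEMA3D, a secreted semaphorin, fell from 143, 139 and 109.5 CPM to 16.5 and 15.8 CPM (log2 fold change of -3.01, SE 0.23, adjusted p = 0.00167), with the pair of splanchnopleure libraries close together. MSLN (without 1, 23 or 8) and PODXL (without 8) missed the threshold with 1 lateral plate library left out (adjusted p from 0.054 to 0.0887). So did PODXL and MSLN without splanchnopleure 6 (adjusted p from 0.127 to 0.175) and PODXL and MSLN without the pool (adjusted p from 0.0603 to 0.0794). SEMA3D passed with any 1 of the 5 libraries left out. The count of rises in this list was 1, 2, 0, 0 and 1 without lateral plate 1, 23, 8, splanchnopleure 6 and the pool, and 2 against lateral plate 1 alone.

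Several regulators of the limb and the somatic sheet fell. Of 23 tested genes, 9 fell and 1 rose, with a median log2 fold change of -1.39. SALL1, SALL3 and SALL4, zinc finger factors of limb and kidney development, fell together. SALL1 went from 209, 124 and 141 CPM in lateral plate 1, 23 and 8 to 36.4 and 29.6 CPM in splanchnopleure 6 and pool (log2 fold change of -2.26, SE 0.35, adjusted p = 0.00484). SALL3 went from 35.4, 18.7 and 18.5 CPM to 4.25 and 4.01 CPM (log2 fold change of -2.55, SE 0.36, adjusted p = 0.00374), and SALL4 from 777, 505 and 597 CPM to 204 and 273 CPM (log2 fold change of -1.39, SE 0.26, adjusted p = 0.00957). For each SALL gene the 5 libraries separated by tissue, with lateral plate 1 the highest. The separation adds no support, as these genes were named after their calls were seen. SALL3 was also low in somatopleure 13, 53 and 5, at 9.67, 8.33 and 8.02 CPM. EdgeR's test of splanchnopleure against somatopleure did not call SALL3 (adjusted p = 0.0767). SALL1 had 99.3, 109 and 53 CPM in the somatopleure and was called lower than there (adjusted p = 0.0298). That call was lost without somatopleure 13 or 53, splanchnopleure 6 or the pool. MSX1, a homeobox factor under BMP control, fell from 32, 32.3 and 33.1 CPM to 9.67 and 9.19 CPM (log2 fold change of -1.78, SE 0.29, adjusted p = 0.0059), and LMX1B, the dorsal limb factor, from 8.23, 3.45 and 3.55 CPM to 0.129 and 0.647 CPM (log2 fold change of -3.66, SE 0.71, adjusted p = 0.0102). EMX2, a homeobox factor of the scapula and urogenital system, fell from 21.4, 10.1 and 18.9 CPM to 0.645 and 0.776 CPM (log2 fold change of -4.53, SE 0.80, adjusted p = 0.00771).

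DLX5 and TFAP2B, factors that surface ectoderm also expresses, fell as well. The member that rose was PDGFRA, the platelet-derived growth factor receptor of mesenchyme, from 136, 253 and 226 CPM to 600 and 446 CPM (log2 fold change of 1.35, SE 0.27, adjusted p = 0.0118). Limb genes differed between the splanchnopleure libraries. PRRX1, a homeobox factor of limb mesenchyme, was at 79.8, 109 and 99.8 CPM in the lateral plate and 6.19 and 48.5 CPM in the splanchnopleure (log2 fold change of -1.81, SE 0.65, adjusted p = 0.0784). TBX5, the forelimb T-box factor, had 0.114, 7.76 and 3.06 CPM and 1.93 and 25.2 CPM, with overlap (log2 fold change of 1.90, SE 1.37, adjusted p = 0.35). No lateral plate library had a count of ALX1, and it had none in splanchnopleure 6, but 8.93 CPM in the pool and 6.66, 2.73 and 28.3 CPM in somatopleure 13, 53 and 5. Against a floor of 3 counts per library, ALX1 was at least 12.4-fold higher in the splanchnopleure mean, which rests on the pool, and it did not pass the test (adjusted p = 0.083). The pool thus held more PRRX1, TBX5 and ALX1 than splanchnopleure 6, while over the whole list 11 of 23 genes were higher in the pool and 11 in splanchnopleure 6. TWIST1 had 0.114, 1.72 and 0.735 CPM and 2.71 and 3.23 CPM and FGF10, the limb bud growth factor, 7.66, 0.985 and 1.71 CPM and 1.42 and 0.259 CPM. Neither passed (adjusted p = 0.241 and 0.205). SALL4, MSX1, LMX1B, EMX2, DLX5 and PDGFRA missed the threshold without splanchnopleure 6 (adjusted p from 0.0514 to 0.101). SALL1, SALL3 and TFAP2B passed with any 1 of the 5 libraries left out. The list's falls numbered 8, 10, 9, 3 and 11 without lateral plate 1, 23, 8, splanchnopleure 6 and the pool, and 9 against lateral plate 1 alone.

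Extracellular matrix genes made the broadest group of rises. Of 89 tested members, 45 rose and 5 fell, with a median log2 fold change of 1.05. The summed level of the list was 20790, 24100 and 23660 CPM in lateral plate 1, 23 and 8, 24520, 20260 and 28090 CPM in somatopleure 13, 53 and 5, and 82520 and 47700 CPM in splanchnopleure 6 and pool. COL3A1, a collagen of vessels and hollow organs, went from 2.06, 35.1 and 63.1 CPM to 8857 and 2848 CPM (log2 fold change of 7.46, SE 1.05, adjusted p = 0.00372). COL1A2 went from 83.3, 261 and 247 CPM to 6630 and 3816 CPM (log2 fold change of 4.73, SE 0.45, adjusted p = 0.00167), and COL1A1, its partner chain in type I collagen, from 257, 462 and 514 CPM to 7749 and 3293 CPM (log2 fold change of 3.75, SE 0.44, adjusted p = 0.00252). In all 3 genes lateral plate 1 was the lowest of the 5 libraries and splanchnopleure 6 the highest, and no lateral plate library came near the pool.

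TNC, tenascin C, an adhesion-modulating glycoprotein, rose from 59, 83.1 and 155 CPM in lateral plate 1, 23 and 8 to 2868 and 1531 CPM in splanchnopleure 6 and pool (log2 fold change of 4.47, SE 0.40, adjusted p = 0.00167). DCN, decorin, a small proteoglycan that binds collagen fibrils, rose from 2.74, 8.13 and 10.4 CPM to 576 and 433 CPM (log2 fold change of 6.16, SE 0.66, adjusted p = 0.00215). COL6A1, of the beaded filament collagen, rose from 36.6, 306 and 216 CPM to 2766 and 2446 CPM (log2 fold change of 3.81, SE 0.66, adjusted p = 0.00732). For each of these genes both splanchnopleure libraries were many times above the highest lateral plate library. This gap, like that of COL3A1, COL1A2 and COL1A1, adds no support, as the genes were named for their calls. COL12A1, a fibril-associated collagen, rose from 7.88, 6.4 and 14 CPM to 259 and 100 CPM (log2 fold change of 4.25, SE 0.62, adjusted p = 0.00405). FBLN5, an elastic fibre protein, had 3 counts over the lateral plate libraries and 114 over the splanchnopleure libraries, a ratio of 61.4 (exact 95% interval 20.5 to 302). ELN, elastin, had 9.03, 22.4 and 12.4 CPM and 103 and 87.7 CPM (log2 fold change of 2.71, SE 0.60, adjusted p = 0.0164).

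LAMC1, a laminin chain of basement membranes, rose from 683, 705 and 757 CPM to 1532 and 1239 CPM (log2 fold change of 0.95, SE 0.16, adjusted p = 0.00609), and HSPG2, the basement membrane proteoglycan perlecan, from 131, 161 and 163 CPM to 326 and 304 CPM (log2 fold change of 1.05, SE 0.13, adjusted p = 0.00278). COL4A4, a basement membrane collagen, changed more, from 6.97, 9.6 and 8.45 CPM to 163 and 52 CPM (log2 fold change of 3.69, SE 0.57, adjusted p = 0.00505). The enzymes ADAMTS5 and ADAMTS9, which cleave proteoglycans, rose from 1.71, 1.23 and 3.43 CPM to 38.5 and 26.8 CPM (log2 fold change of 3.93, SE 0.54, adjusted p = 0.00361) and from 46.3, 155 and 85.8 CPM to 711 and 462 CPM (log2 fold change of 2.62, SE 0.41, adjusted p = 0.00506). The matrix genes that fell were COL22A1, SMOC1, MATN4, MMP17 and ADAMTS20. Among them MATN4, a matrilin, went from 16.6, 14.3 and 17 CPM to 2.84 and 1.81 CPM (log2 fold change of -2.77, SE 0.72, adjusted p = 0.0278). COL22A1, MATN4, MMP17 and ADAMTS20 (without 1, 23 or 8) and ELN and SMOC1 (without 1 or 8) missed the threshold with 1 lateral plate library left out (adjusted p from 0.0554 to 0.108). So did ELN, LAMC1, COL22A1, SMOC1, MATN4 and MMP17 without splanchnopleure 6 (adjusted p from 0.0601 to 0.225) and COL22A1, SMOC1, MATN4 and ADAMTS20 without the pool (adjusted p from 0.122 to 0.158). COL3A1, COL1A2, COL1A1, TNC, DCN, COL6A1, COL12A1, HSPG2, COL4A4, ADAMTS5 and ADAMTS9 passed with any 1 of the 5 libraries left out. The list's rises numbered 23, 32, 32, 14 and 41 without lateral plate 1, 23, 8, splanchnopleure 6 and the pool, and 27 against lateral plate 1 alone. Its falls numbered 0, 1, 0, 1 and 2, and 2 against lateral plate 1 alone.

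**Figure D3:**
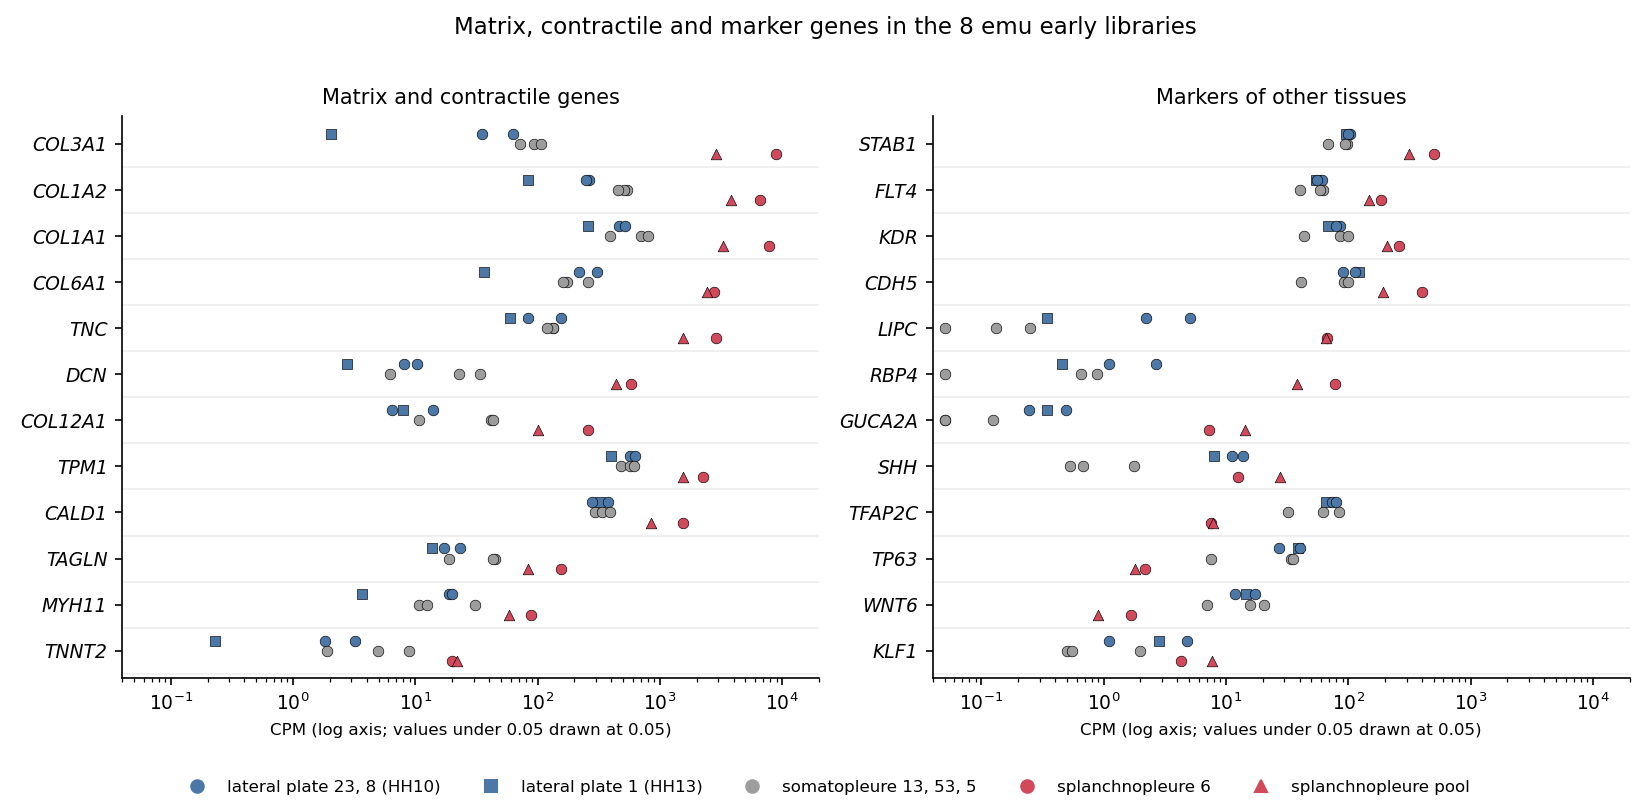
CPM on a log axis of matrix and contractile genes (left) and markers of other tissues (right) in each of the 8 emu early libraries, coloured and shaped by library as in the legend. COL3A1, COL1A2, TNC and DCN are higher in both splanchnopleure libraries than in any other library, and TFAP2C, TP63 and WNT6 are lower.

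Endothelial genes were higher in the splanchnopleure. Of 33 tested members, 19 rose and 14 did not pass, with a median log2 fold change of 1.54, and the summed level was 1767, 1954 and 2008 CPM in lateral plate 1, 23 and 8, 1326, 1714 and 1218 CPM in the somatopleure and 5912 and 3653 CPM in splanchnopleure 6 and pool. STAB1, a scavenger receptor of sinusoidal endothelium, rose from 95.3, 104 and 98.9 CPM to 504 and 311 CPM (log2 fold change of 2.04, SE 0.21, adjusted p = 0.00215). The receptors of vascular endothelial growth factor FLT4 and KDR rose from 54.3, 60.8 and 55.8 CPM to 186 and 149 CPM (log2 fold change of 1.56, SE 0.19, adjusted p = 0.00259) and from 67.8, 85.3 and 79.5 CPM to 262 and 206 CPM (log2 fold change of 1.60, SE 0.29, adjusted p = 0.00876). CDH5, the endothelial cadherin, had 122, 91.2 and 113 CPM and 397 and 191 CPM (log2 fold change of 1.44, SE 0.38, adjusted p = 0.0297), without overlap. ANGPT2, a ligand of the TEK receptor, rose from 5.03, 6.16 and 12 CPM to 83 and 39.5 CPM (log2 fold change of 2.99, SE 0.40, adjusted p = 0.00338), and LYVE1, a hyaluronan receptor, from 31.9, 24.5 and 26.8 CPM to 120.1 and 72.6 CPM (log2 fold change of 1.80, SE 0.25, adjusted p = 0.00364). Splanchnopleure 6 exceeded the pool in 31 of the 33 genes, against 49.3% of all tested genes. CDH5 (without 1, 23 or 8) missed the threshold with 1 lateral plate library left out (adjusted p from 0.0752 to 0.0877). So did KDR and CDH5 without splanchnopleure 6 (adjusted p from 0.0713 to 0.272). STAB1, FLT4, ANGPT2 and LYVE1 passed with any 1 of the 5 libraries left out. The list's rises numbered 8, 10, 13, 4 and 19 without lateral plate 1, 23, 8, splanchnopleure 6 and the pool, and 7 against lateral plate 1 alone.

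None of the blood cell genes rose. Of 11 tested members 2 fell and 9 did not pass, with a median log2 fold change of 0.30. The summed level was 468, 399 and 537 CPM in the lateral plate and 242 and 332 CPM in the splanchnopleure. Without the members that fell it was 159, 99.7 and 252 CPM against 162 and 251 CPM, which overlap. The 2 that fell were GATA2, from 246, 236 and 229.7 CPM to 69.6 and 60.7 CPM (log2 fold change of -1.86, SE 0.17, adjusted p = 0.00167), and MYB, from 63.1, 63.3 and 55.6 CPM to 9.93 and 20.6 CPM (log2 fold change of -1.99, SE 0.31, adjusted p = 0.00505), factors of blood progenitors that other tissues also use. GATA2 is on the surface ectoderm list too. KLF1, the red cell factor, had 2.86, 1.11 and 4.78 CPM and 4.25 and 7.63 CPM, with overlap (adjusted p = 0.314). Both falls passed with any 1 of the 5 libraries left out.

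Genes for secreted plasma proteins, which yolk sac endoderm and later the liver make, were higher in the splanchnopleure. Of 29 tested members 15 rose and 14 did not pass, with a median log2 fold change of 2.06. Their summed level was 513, 593 and 562 CPM in lateral plate 1, 23 and 8, 545, 476 and 818 CPM in the somatopleure and 1622 and 1251 CPM in splanchnopleure 6 and pool. COLEC10, a collectin, had 0, 0.739 and 1.35 CPM in the lateral plate and 209 and 44.9 CPM in the splanchnopleure (log2 fold change of 7.51, SE 0.93, adjusted p = 0.0028). LIPC, hepatic lipase, had 0.343, 5.05 and 2.2 CPM and 67.5 and 66.1 CPM (log2 fold change of 4.73, SE 0.66, adjusted p = 0.00361). RBP4, the retinol carrier, had 0.457, 1.11 and 2.69 CPM and 77.3 and 37.9 CPM (log2 fold change of 5.34, SE 0.69, adjusted p = 0.00298), and FGB, the fibrinogen beta chain, 0.114, 0 and 1.47 CPM and 17.8 and 24.7 CPM (log2 fold change of 5.30, SE 0.98, adjusted p = 0.00903). F2, prothrombin, rose from 1.37, 3.32 and 3.92 CPM to 33.6 and 26.3 CPM (log2 fold change of 3.38, SE 0.47, adjusted p = 0.00361). ITIH5, an inter-alpha-trypsin inhibitor heavy chain, rose from 1.14, 2.09 and 3.18 CPM to 50.1 and 30.3 CPM (log2 fold change of 4.23, SE 0.54, adjusted p = 0.00292). Each of these genes was at or under 5.05 CPM in every lateral plate library and at or above 17.8 CPM in both splanchnopleure libraries. That gap adds no support, as the genes were named for their calls. COLEC10, LIPC, RBP4, FGB, F2 and ITIH5 passed with any 1 of the 5 libraries left out. DESeq2, however, did not call FGB. The list's rises numbered 12, 13, 14, 7 and 10 without lateral plate 1, 23, 8, splanchnopleure 6 and the pool, and 8 against lateral plate 1 alone.

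Of 22 tested endoderm and gut epithelium genes, 4 rose and 3 fell, beside 11.4% and 9.21% of all tested genes. GUCA2A, guanylin, a gut peptide, rose from 0.343, 0.246 and 0.49 CPM to 7.22 and 14.4 CPM (log2 fold change of 4.85, SE 0.60, adjusted p = 0.00278), and SLC5A1, the sodium-glucose transporter, from 13.1, 22 and 19 CPM to 39.6 and 58.6 CPM (log2 fold change of 1.44, SE 0.30, adjusted p = 0.0135). CLDN3, a tight junction claudin, and IHH, a hedgehog ligand, were the other rises. The falls were CLDN1, ESRP1 and ELF3, epithelial genes of which CLDN1 and ESRP1 are also on the surface ectoderm list. ELF3 went from 23.8, 26.8 and 24.4 CPM to 6.06 and 5.69 CPM (log2 fold change of -2.08, SE 0.37, adjusted p = 0.00794). FOXA2, a defining endoderm factor, had 2.4, 9.36 and 3.55 CPM in the lateral plate and 8.89 and 20.7 CPM in the splanchnopleure (adjusted p = 0.0939), beside 1.13, 0.546 and 0.92 CPM in somatopleure 13, 53 and 5. SHH, the hedgehog ligand of endoderm and notochord, had 8, 11.2 and 13.7 CPM and 12.6 and 27.8 CPM (adjusted p = 0.2), beside 1.76, 0.683 and 0.526 CPM. Both markers were thus detected in every lateral plate library, above each somatopleure library, although the test between those tissues called neither. The summed level of the list was 903, 1013 and 814 CPM in the lateral plate and 666 and 761 CPM in the splanchnopleure, or 556, 650 and 517 CPM against 544 and 637 CPM without CLDN1. The median log2 fold change was 0.77. The part of endoderm in the rise of mesodermal genes was not tested. IHH and ESRP1 (without 1 or 8) missed the threshold with 1 lateral plate library left out (adjusted p from 0.0509 to 0.106). So did CLDN3, IHH, CLDN1, ESRP1 and ELF3 without splanchnopleure 6 (adjusted p from 0.0532 to 0.142) and SLC5A1, IHH and ESRP1 without the pool (adjusted p from 0.0616 to 0.11). GUCA2A passed with any 1 of the 5 libraries left out. The list's rises numbered 3, 5, 3, 2 and 2 without lateral plate 1, 23, 8, splanchnopleure 6 and the pool, and its falls 2, 3, 3, 0 and 2.

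Surface ectoderm genes were lower in the splanchnopleure. Of 28 tested members 17 fell and 11 did not pass, with a median log2 fold change of -1.74. The summed level was 4297, 4969 and 4827 CPM in lateral plate 1, 23 and 8, 4541, 3098 and 5432 CPM in somatopleure 13, 53 and 5, and 3132 and 3632 CPM in splanchnopleure 6 and pool, a sum led by DSP, desmoplakin, which did not pass (adjusted p = 0.41). TFAP2C, a factor of early epidermis, fell from 66.2, 73.5 and 79.7 CPM to 7.61 and 7.76 CPM (log2 fold change of -3.25, SE 0.38, adjusted p = 0.00253), and TFAP2B from 25, 20.2 and 22.4 CPM to 0.773 and 0.517 CPM (log2 fold change of -5.09, SE 0.62, adjusted p = 0.00258). TFAP2E fell from 52.8, 47.3 and 49.1 CPM to 5.67 and 1.55 CPM (log2 fold change of -3.78, SE 0.51, adjusted p = 0.0035). TP63, the master factor of epidermis, fell from 38.5, 27.2 and 39.9 CPM to 2.19 and 1.81 CPM (log2 fold change of -4.13, SE 0.68, adjusted p = 0.00602), and WNT6, an ectodermal ligand, from 14.6, 17.1 and 11.9 CPM to 1.68 and 0.906 CPM (log2 fold change of -3.48, SE 0.55, adjusted p = 0.00513). In each of these 5 genes all 3 lateral plate libraries were above both splanchnopleure libraries, which adds no support as the genes were named for their calls. PKP1, a desmosomal plakophilin, had 47 counts over the lateral plate libraries and 0 over the splanchnopleure libraries, at least 4.76-fold lower. EPCAM, an epithelial adhesion molecule shared with endoderm, had 330.5, 387 and 264 CPM and 223 and 214 CPM (adjusted p = 0.0699). MSX1, DLX5 and TFAP2B are counted among the limb regulators as well as here, and the part of ectoderm in their fall was not tested. TP63 missed the threshold without splanchnopleure 6 (adjusted p = 0.0588). TFAP2C, TFAP2B, TFAP2E and WNT6 passed with any 1 of the 5 libraries left out. PKP1 missed the threshold without splanchnopleure 6 (adjusted p = 0.142) and the pool (0.0877), and had too few counts to be tested without lateral plate 1 or 8. The list's falls numbered 11, 14, 11, 6 and 12 without lateral plate 1, 23, 8, splanchnopleure 6 and the pool, and 11 against lateral plate 1 alone.

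Markers of other neighbouring tissues moved in both directions. Of 8 tested genes of the intermediate mesoderm and nephric duct, 3 fell (GATA3, EMX2 and RET) and 1 rose (CDH6, a cadherin). CDH6 went from 0.114, 1.97 and 6.61 CPM to 281 and 97.8 CPM (log2 fold change of 6.04, SE 0.87, adjusted p = 0.00395), and RET, the receptor of the nephric duct and enteric nerves, from 42.4, 37.5 and 53 CPM to 6.96 and 5.05 CPM (log2 fold change of -2.88, SE 0.74, adjusted p = 0.0274). Of 7 somite genes 1 rose (MEOX2) and 1 fell (SOX9), and the list's median was -1.31, or -0.74 with UNCX, which had no count in the splanchnopleure, at its bound. Of 12 posterior growth zone genes 2 rose (FGFRL1 and RSPO3) and 2 fell (TBX6 and GREB1). TBX6, a T-box factor of paraxial mesoderm, had 29.5, 7.51 and 11.5 CPM and 1.93 and 1.42 CPM (log2 fold change of -3.26, SE 0.76, adjusted p = 0.0196), with lateral plate 1 the highest. Somatopleure 13, 53 and 5 had 2.76, 5.46 and 1.45 CPM of TBX6, and edgeR's test of splanchnopleure against somatopleure did not call it (adjusted p = 0.436). Of 16 neural genes 3 rose (STMN2, CDH2 and GFAP) and 3 fell (SOX3, SOX8 and TFAP2B). SOX3, a neural progenitor factor, had 225 counts over the lateral plate libraries and 3 over the splanchnopleure libraries, a 46.4-fold lower level (exact 95% interval 15.7 to 227), whereas STMN2, a neuronal stathmin, had 1 and 144, a 233-fold higher level (41.1 to 9260). Of 5 tested Hox genes 0 passed edgeR's test, 3 had an unadjusted p under 0.05, and 2 were called by DESeq2. RET and SOX9 (without 1, 23 or 8), GFAP (without 1 or 23), MEOX2 (without 1 or 8) and TBX6 (without 1) missed the threshold with 1 lateral plate library left out (adjusted p from 0.0505 to 0.132). So did RET, MEOX2, SOX9, TBX6, GREB1, GFAP and SOX8 without splanchnopleure 6 (adjusted p from 0.0694 to 0.22) and RET, TBX6, GFAP and SOX8 without the pool (adjusted p from 0.0577 to 0.119). GATA3, CDH6, STMN2 and SOX3 passed with any 1 of the 5 libraries left out.

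**Figure D4:**
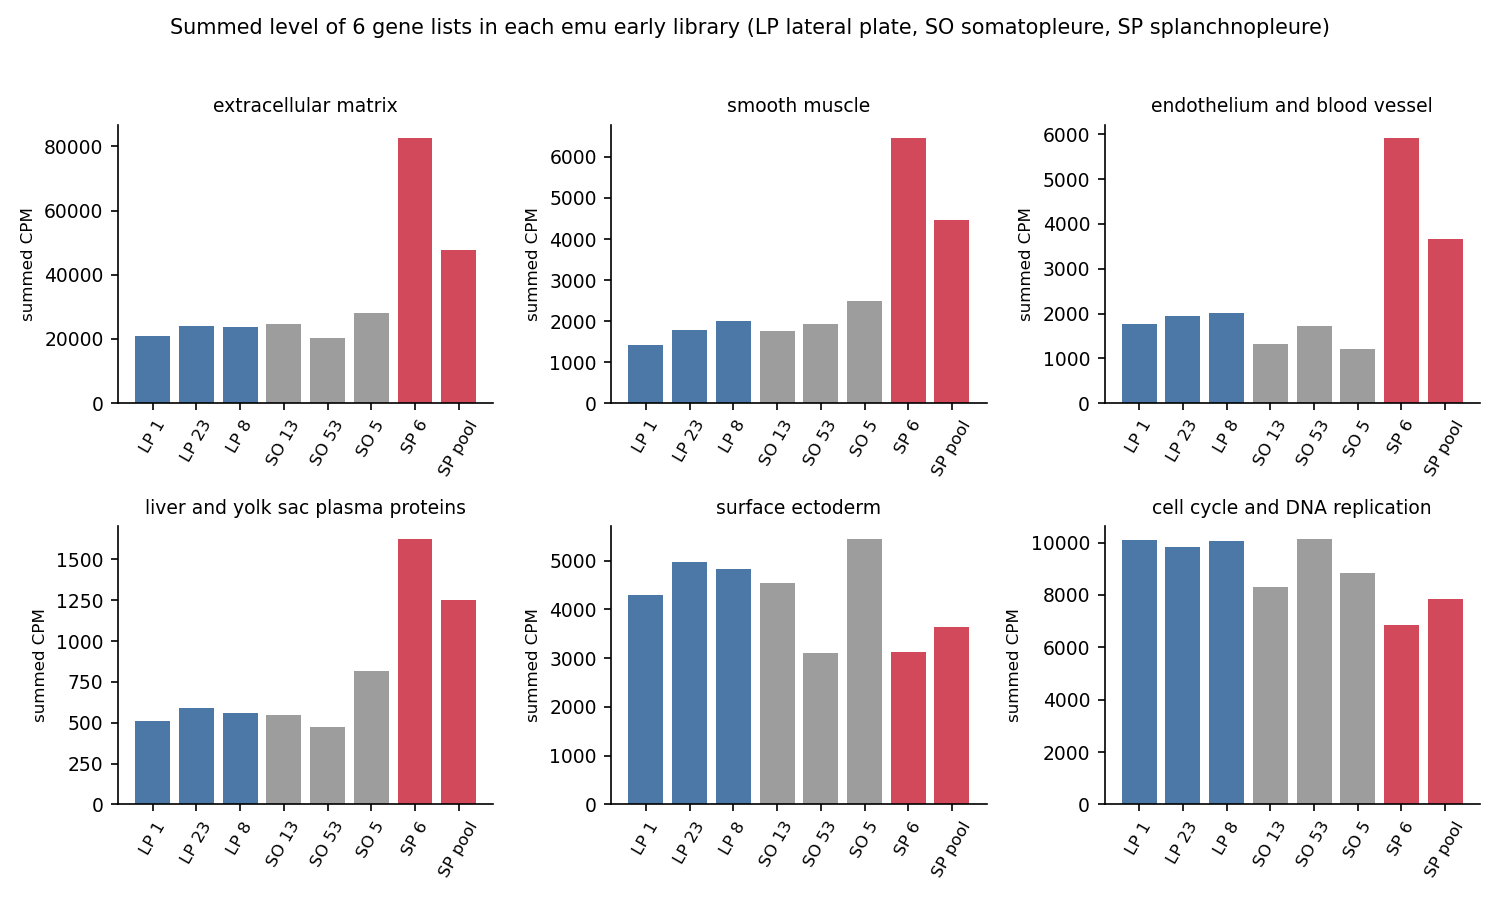
Summed CPM of 6 gene lists (vertical axes, from 0) in each emu early library, blue for lateral plate, grey for somatopleure and red for splanchnopleure. Matrix, smooth muscle, endothelial and plasma protein sums are highest in splanchnopleure 6 and next highest in the pool, cell cycle sums are lowest there, and the surface ectoderm sum of somatopleure 53 (3098 CPM) is below that of splanchnopleure 6 (3132 CPM).

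Signalling genes were read by role. Of 15 tested readouts of FGF signalling through ERK, 4 fell and 11 did not pass (median log2 fold change -0.90). DUSP6, a phosphatase induced by ERK that acts as feedback, fell from 155, 118 and 143 CPM in lateral plate 1, 23 and 8 to 29.6 and 42.6 CPM in splanchnopleure 6 and pool (log2 fold change of -1.94, SE 0.29, adjusted p = 0.00456). ETV1 and ETV5, ETS factors induced by FGF, fell from 244, 135 and 199.5 CPM to 23.1 and 39.6 CPM (log2 fold change of -2.62, SE 0.41, adjusted p = 0.00513) and from 109, 89.6 and 107 CPM to 30.6 and 58.4 CPM (log2 fold change of -1.20, SE 0.30, adjusted p = 0.0262). ETV4 had 69, 45.7 and 47.1 CPM and 6.19 and 26.4 CPM, without overlap (log2 fold change of -1.73, SE 0.58, adjusted p = 0.0631). SPRY1, a Sprouty inhibitor, fell as well (log2 fold change -1.53, adjusted p = 0.0409), while SPRY2, its relative, had 37.6, 18.1 and 26.8 CPM and 41.6 and 51.2 CPM and did not pass (adjusted p = 0.142). SPRY1 was also low in somatopleure 13, 53 and 5 (15.4, 12.2 and 5.13 CPM), and edgeR's test of splanchnopleure against somatopleure did not call it (adjusted p = 0.937). Levels in the pool lay between those of splanchnopleure 6 and the lateral plate for DUSP6, ETV1, ETV4 and ETV5.

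Of 13 tested FGF ligands and receptors, 2 rose and 3 fell. FGFR2, a receptor, rose from 83.4, 138 and 129 CPM to 249.6 and 296 CPM (log2 fold change of 1.23, SE 0.21, adjusted p = 0.00684), and FGFRL1, a receptor without a kinase domain, from 13.5, 28.2 and 25.4 CPM to 84 and 69 CPM (log2 fold change of 1.78, SE 0.36, adjusted p = 0.0119). The falls were FGF7 and FGF13, and FGF3, which had 35 counts over the lateral plate libraries and 0 over the splanchnopleure libraries, at least 3.55-fold lower. FGF7, a ligand made by mesenchyme, fell from 8.91, 8.74 and 11 CPM to 1.8 and 1.55 CPM (log2 fold change of -2.50, SE 0.48, adjusted p = 0.0103). FGF8, which signals at the tail end and the limb margin, had 29 counts and 0, at least 2.97-fold lower, and did not pass (adjusted p = 0.0632). SPRY1 (without 1, 23 or 8) and ETV5 and FGF13 (without 1 or 8) missed the threshold with 1 lateral plate library left out (adjusted p from 0.0602 to 0.126). So did ETV1, ETV5, SPRY1, FGFRL1, FGF7 and FGF13 without splanchnopleure 6 (adjusted p from 0.055 to 0.182) and SPRY1 and FGF13 without the pool (adjusted p from 0.0554 to 0.18). DUSP6 and FGFR2 passed with any 1 of the 5 libraries left out. FGF3 missed it without splanchnopleure 6 (adjusted p = 0.144) and the pool (0.0882), and had too few counts to be tested without lateral plate 1 or 8. The ERK readouts' falls numbered 2, 4, 2, 1 and 4 without lateral plate 1, 23, 8, splanchnopleure 6 and the pool, and those of ligands and receptors 1, 3, 1, 0 and 1, beside 3 and 2 against lateral plate 1 alone.

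Of 16 tested hedgehog genes 1 rose and 15 did not pass, and the median log2 fold change was 0.12. IHH, a ligand of endoderm, rose from 0.8, 2.34 and 0.98 CPM to 5.03 and 5.56 CPM (log2 fold change of 1.94, SE 0.53, adjusted p = 0.0324), and, as given above, that call was lost in 4 of the 5 fits with 1 library left out. Of the target genes, PTCH1, the receptor that hedgehog signalling induces, had 344, 419 and 383 CPM and 519.9 and 624 CPM, and its groups did not overlap, but it did not pass (log2 fold change of 0.58, SE 0.58, adjusted p = 0.512). HHIP, an induced inhibitor, had 1.83, 15 and 18.1 CPM and 96 and 139 CPM (log2 fold change of 3.34, SE 1.16, adjusted p = 0.0704). GLI1 had 80.3, 118 and 86.9 CPM and 77.7 and 105 CPM, with overlap (adjusted p = 0.937). The HHIP groups did not overlap, but its standard error was large. Somatopleure 13, 53 and 5, which enter the same estimate of the spread, had 170, 414.7 and 58.25 CPM of PTCH1. They had 10.3, 35.5 and 0 CPM of HHIP. A fit of the 5 libraries alone was also run (2567 calls), but its standard errors for PTCH1 and HHIP are not reported here.

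In the BMP and TGF-beta pathway, 9 of 42 tested genes rose and 2 fell (BMP7 and SMAD1). Among ligands, BMP7 fell from 41.4, 39.9 and 37.7 CPM to 6.7 and 6.34 CPM (log2 fold change of -2.60, SE 0.36, adjusted p = 0.00362), whereas BMP5 rose from 7.08, 17.7 and 8.69 CPM to 46.3 and 33 CPM (log2 fold change of 1.83, SE 0.42, adjusted p = 0.0187). Of the receptors, TGFBR3, the betaglycan co-receptor, rose from 24.2, 45.1 and 46.7 CPM to 392 and 178 CPM (log2 fold change of 2.88, SE 0.37, adjusted p = 0.00293), and TGFBR2, the type II receptor, from 10.5, 14.2 and 16.3 CPM to 62.6 and 37.5 CPM (log2 fold change of 1.88, SE 0.33, adjusted p = 0.00751). BMP5 (without 1 or 8) missed the threshold with 1 lateral plate library left out (adjusted p from 0.0622 to 0.0643). So did BMP5 and TGFBR2 without splanchnopleure 6 (adjusted p from 0.0771 to 0.131). BMP7 and TGFBR3 passed with any 1 of the 5 libraries left out. Rises in the pathway numbered 5, 7, 6, 2 and 10 without lateral plate 1, 23, 8, splanchnopleure 6 and the pool, and 6 against lateral plate 1 alone.

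WNT genes moved both ways, 11 of 48 tested rising and 8 falling, with a median log2 fold change of 0.09. Every ligand that passed fell: WNT10A, from 13.2, 15 and 14.3 CPM to 0.645 and 0.129 CPM (log2 fold change of -5.14, SE 0.58, adjusted p = 0.00216), WNT6, WNT7A and WNT4. WNT6 is described above with the surface ectoderm genes, and the part of ectoderm in the fall of these ligands was not tested. The target genes of beta-catenin AXIN2 and LEF1 fell too, AXIN2 from 146, 76.2 and 86.7 CPM to 24 and 37.6 CPM (log2 fold change of -1.74, SE 0.34, adjusted p = 0.0103) and LEF1 from 488, 263 and 358 CPM to 93.3 and 151 CPM (log2 fold change of -1.60, SE 0.30, adjusted p = 0.00927). Several receptors and agonists rose. FZD1, a frizzled receptor, went from 23.8, 36.3 and 31.8 CPM to 97.3 and 93.9 CPM (log2 fold change of 1.64, SE 0.19, adjusted p = 0.00215), LGR4, a receptor of R-spondins, from 98.5, 121 and 134 CPM to 316 and 252 CPM (log2 fold change of 1.27, SE 0.19, adjusted p = 0.00472), and RSPO3, an R-spondin, from 2.97, 7.63 and 5.88 CPM to 41.2 and 50.1 CPM (log2 fold change of 3.06, SE 0.41, adjusted p = 0.00338). FZD10, by contrast, fell from 84.1, 29.6 and 49.5 CPM to 15.7 and 16.3 CPM (log2 fold change of -1.76, SE 0.43, adjusted p = 0.023). RSPO3 was also above the lateral plate in somatopleure 13, 53 and 5 (35.5, 16.1 and 31.7 CPM). EdgeR's test of splanchnopleure against somatopleure did not call RSPO3 (adjusted p = 0.245). SFRP5 and FRZB, secreted inhibitors, rose (log2 fold change 2.94 and 1.27, adjusted p = 0.0296 and 0.00971). WNT7A and WNT4 (without 1, 23 or 8) and FZD10 and SFRP5 (without 1 or 8) missed the threshold with 1 lateral plate library left out (adjusted p from 0.0505 to 0.0955). So did WNT7A, WNT4, AXIN2, LEF1, FZD10 and FRZB without splanchnopleure 6 (adjusted p from 0.0634 to 0.182) and WNT7A, WNT4, FZD10 and SFRP5 without the pool (adjusted p from 0.0689 to 0.318). WNT10A, FZD1, LGR4 and RSPO3 passed with any 1 of the 5 libraries left out. WNT rises numbered 6, 9, 6, 4 and 8 without lateral plate 1, 23, 8, splanchnopleure 6 and the pool, and WNT falls 5, 6, 5, 2 and 7, beside 5 rises and 6 falls against lateral plate 1 alone.

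Retinoic acid genes gave 4 rises and 1 fall of 17. RDH10, which makes retinal, rose from 18.4, 66.2 and 49.1 CPM to 96.8 and 303 CPM (log2 fold change of 2.17, SE 0.55, adjusted p = 0.026), and CYP26B1, which degrades retinoic acid, from 8.8, 25 and 13.3 CPM to 75 and 62.2 CPM (log2 fold change of 2.13, SE 0.36, adjusted p = 0.00675). CRABP1, a cellular binding protein, rose from 19.3, 46 and 38.2 CPM to 172 and 348 CPM (log2 fold change of 2.91, SE 0.36, adjusted p = 0.00283), and RBP4 was described above. ALDH1A2, which makes retinoic acid, had 260, 274 and 225 CPM in the lateral plate and 62 and 303 CPM in splanchnopleure 6 and pool, on either side of the lateral plate range (adjusted p = 0.545). NRIP1, a nuclear receptor corepressor, fell (log2 fold change -1.02, adjusted p = 0.012). In the Notch pathway 2 of 18 genes rose, near the 11.4% of all tested genes. They were the receptor NOTCH2 (log2 fold change 0.99, adjusted p = 0.0113) and the target HES1, from 18.7, 31 and 25.7 CPM to 66.3 and 64.4 CPM (log2 fold change of 1.38, SE 0.20, adjusted p = 0.0042). HES6 fell (log2 fold change -2.82, adjusted p = 0.0138). DLL1, a Notch ligand, had 13.6, 5.29 and 13.1 CPM and 7.61 and 4.27 CPM and did not pass (adjusted p = 0.246). SNAI1, a zinc finger repressor, fell (log2 fold change -1.13, adjusted p = 0.0333). SNAI1 (without 1, 23 or 8) and RDH10 (without 1 or 8) missed the threshold with 1 lateral plate library left out (adjusted p from 0.0515 to 0.0887). So did CYP26B1, NRIP1, NOTCH2, HES6 and SNAI1 without splanchnopleure 6 (adjusted p from 0.0563 to 0.22) and RDH10 and NRIP1 without the pool (adjusted p from 0.0607 to 0.2). CRABP1 and HES1 passed with any 1 of the 5 libraries left out.

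Of 52 tested growth factor ligands and receptors of other families, 17 rose and 2 fell (median log2 fold change 1.04). CTGF, a matricellular protein, rose from 42.6, 43 and 52 CPM to 138 and 150.2 CPM (log2 fold change of 1.65, SE 0.14, adjusted p = 0.00167), and IGFBP7, an insulin-like growth factor binding protein, from 1.26, 2.34 and 3.06 CPM to 100.3 and 47 CPM (log2 fold change of 5.05, SE 0.48, adjusted p = 0.00168). VEGFC, the ligand of FLT4, rose from 24.7, 26.7 and 24.5 CPM to 67.7 and 56.9 CPM (log2 fold change of 1.30, SE 0.15, adjusted p = 0.00215), and EDNRA, an endothelin receptor, from 8.23, 9.23 and 12 CPM to 34.7 and 28.2 CPM (log2 fold change of 1.68, SE 0.23, adjusted p = 0.00361). These 4 genes passed with any 1 of the 5 libraries left out. GFRA1, a receptor of GDNF, fell from 88.5, 27.2 and 42 CPM to 7.35 and 6.6 CPM (log2 fold change of -2.91, SE 0.63, adjusted p = 0.0153), and GFRA2, of the related ligand neurturin, rose from 4.11, 5.79 and 6.86 CPM to 36 and 22.1 CPM (log2 fold change of 2.38, SE 0.31, adjusted p = 0.00298). GFRA1 missed the threshold without splanchnopleure 6 (adjusted p = 0.109) and without the pool (adjusted p = 0.0691). GFRA2 passed with any 1 of the 5 libraries left out. Rises among these ligands and receptors numbered 12, 13, 14, 7 and 16 without lateral plate 1, 23, 8, splanchnopleure 6 and the pool, and 12 against lateral plate 1 alone.

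Guidance genes gave 15 rises and 5 falls of 49, and junction genes 10 rises and 2 falls of 45. SLIT2 and SLIT3, secreted guidance ligands, rose from 118, 143 and 168 CPM to 736 and 461 CPM (log2 fold change of 2.06, SE 0.21, adjusted p = 0.00206) and from 59.8, 100.5 and 106 CPM to 446 and 271 CPM (log2 fold change of 2.01, SE 0.27, adjusted p = 0.00328), and their receptor gene ROBO2 from 6.86, 6.53 and 7.22 CPM to 43.8 and 29.9 CPM (log2 fold change of 2.42, SE 0.38, adjusted p = 0.00519). EPHB1, an ephrin receptor, fell from 186, 175 and 175 CPM to 103 and 82.9 CPM (log2 fold change of -0.94, SE 0.12, adjusted p = 0.00298). Of the cadherins, CDH2, N-cadherin, rose from 235, 249 and 322 CPM to 603 and 795 CPM (log2 fold change of 1.38, SE 0.26, adjusted p = 0.00957), and CDH11, a cadherin of mesenchyme, from 196, 413 and 374 CPM to 1376 and 892 CPM (log2 fold change of 1.79, SE 0.29, adjusted p = 0.00594). CLDN1, by contrast, fell from 347, 363 and 297 CPM to 122 and 125 CPM (log2 fold change of -1.44, SE 0.26, adjusted p = 0.00877). ROBO2, CDH11 and CLDN1 missed the threshold without splanchnopleure 6 (adjusted p from 0.0501 to 0.073). SLIT2, SLIT3, EPHB1 and CDH2 passed with any 1 of the 5 libraries left out. Guidance rises numbered 9, 11, 11, 4 and 12 without lateral plate 1, 23, 8, splanchnopleure 6 and the pool, and junction rises 6, 8, 8, 2 and 9, beside 10 and 8 against lateral plate 1 alone.

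Cell cycle and replication genes fell by small amounts where they passed. Of 48 tested genes 14 fell and 2 rose, with a median log2 fold change of -0.48, and the summed level was 10090, 9823 and 10050 CPM in lateral plate 1, 23 and 8, 8299, 10120 and 8850 CPM in the somatopleure and 6871 and 7830 CPM in splanchnopleure 6 and pool. MAD2L1, a spindle checkpoint gene, fell from 167, 145 and 159.6 CPM to 79.4 and 89.9 CPM (log2 fold change of -0.89, SE 0.12, adjusted p = 0.00362), and GMNN, the replication licensing inhibitor geminin, from 101, 87 and 87.1 CPM to 39.6 and 44.5 CPM (log2 fold change of -1.12, SE 0.20, adjusted p = 0.00846). POLA1, a DNA polymerase subunit, fell from 156, 148 and 143 CPM to 76.1 and 95.5 CPM (log2 fold change of -0.80, SE 0.13, adjusted p = 0.00609). The rises were CCND2, a cyclin, and CDKN1B, an inhibitor of cyclin-dependent kinases (log2 fold change 0.74 and 1.15, adjusted p = 0.0283 and 0.0176). CCND2 (without 1, 23 or 8) and CDKN1B (without 1) missed the threshold with 1 lateral plate library left out (adjusted p from 0.0567 to 0.0938). So did GMNN, POLA1, CCND2 and CDKN1B without splanchnopleure 6 (adjusted p from 0.0604 to 0.233). MAD2L1 passed with any 1 of the 5 libraries left out. The list's falls numbered 7, 10, 8, 1 and 11 without lateral plate 1, 23, 8, splanchnopleure 6 and the pool, and 7 against lateral plate 1 alone.

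Of 58 ribosomal protein genes 0 passed edgeR's test, 4 had an unadjusted p under 0.05, and 1 was called by DESeq2. Of 50 oxidative phosphorylation genes 1 rose. The median log2 fold changes of these groups were -0.14 and -0.04. The gene that rose was NDUFB4, of respiratory complex I (log2 fold change 0.65, adjusted p = 0.0204). Glycolysis and hypoxia genes gave 6 rises and 6 falls of 37. HK2, a hexokinase, fell from 88, 108 and 104 CPM to 27.7 and 35.1 CPM (log2 fold change of -1.67, SE 0.17, adjusted p = 0.00206), and LDHB, a lactate dehydrogenase subunit, from 1006, 919.7 and 996 CPM to 526 and 535 CPM (log2 fold change of -0.88, SE 0.12, adjusted p = 0.00361). EPAS1, a hypoxia-inducible factor that endothelium also expresses, rose from 49.2, 61.9 and 104 CPM to 424 and 285 CPM (log2 fold change of 2.31, SE 0.32, adjusted p = 0.00361). Immediate early and stress genes, which tissue handling can induce, gave 4 rises and 1 fall of 29, beside 11.4% and 9.21% of all tested genes. JUN rose from 33.9, 44.7 and 45.1 CPM to 272 and 233 CPM (log2 fold change of 2.61, SE 0.35, adjusted p = 0.00323), while EGR1 had 47.2, 4.8 and 5.14 CPM and 16.6 and 24.6 CPM, with overlap (adjusted p = 0.939), and was highest in lateral plate 1. NDUFB4 (without 1 or 23) missed the threshold with 1 lateral plate library left out (adjusted p from 0.0548 to 0.0718). So did NDUFB4 without splanchnopleure 6 (adjusted p = 0.141). HK2, LDHB, EPAS1 and JUN passed with any 1 of the 5 libraries left out. The glycolysis list gave 1, 3, 3, 1 and 2 rises and 3, 3, 4, 3 and 5 falls without lateral plate 1, 23, 8, splanchnopleure 6 and the pool, and 2 rises and 3 falls against lateral plate 1 alone. Stress gene rises numbered 4, 4, 3, 1 and 4 without the same libraries in turn, and 2 against lateral plate 1 alone.

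Ranked by size, the 12 largest rises among non-overlapping genes with a mean log2 CPM of at least 1 were those of COLEC10, COL3A1, AQP1, DCN, CDH6, GSDMA, COL8A1, RBP4, FGB, DDC, SVEP1 and KCNH5. AQP1, a water channel of endothelium and mesothelium, went from 0.229, 0.246 and 0.49 CPM to 60.5 and 16.3 CPM (log2 fold change of 6.84, SE 0.89, adjusted p = 0.00299), and SVEP1, a large secreted adhesion protein, from 9.6, 37.3 and 99.7 CPM to 3011 and 651 CPM (log2 fold change of 5.23, SE 0.99, adjusted p = 0.00979). Both rises were larger in splanchnopleure 6. GSDMA, a gasdermin, went from 0.229, 0.369 and 0.367 CPM to 10.1 and 33.5 CPM (log2 fold change of 6.02, SE 0.77, adjusted p = 0.00293), and DDC, which makes dopamine and serotonin, from 0.229, 0.985 and 0.245 CPM to 10.7 and 26.9 CPM (log2 fold change of 5.24, SE 1.20, adjusted p = 0.0183), both with more in the pool. DDC had 1.38, 2.73 and 21.3 CPM in somatopleure 13, 53 and 5. It was not called by edgeR's test of splanchnopleure against somatopleure (adjusted p = 0.454). KCNH5, a potassium channel, had 1.03, 0.862 and 2.69 CPM and 75.5 and 30.9 CPM (log2 fold change of 5.11, SE 0.73, adjusted p = 0.00379), and COL8A1, a collagen of vessel walls, 0.571, 0.123 and 0.857 CPM and 48.5 and 3.62 CPM (log2 fold change of 5.61, SE 1.05, adjusted p = 0.00945). DDC (without 1 or 8) missed the threshold with 1 lateral plate library left out (adjusted p from 0.0635 to 0.0744). So did SVEP1, DDC and COL8A1 without splanchnopleure 6 (adjusted p from 0.0563 to 0.125) and DDC without the pool (adjusted p = 0.0631). AQP1, GSDMA and KCNH5 passed with any 1 of the 5 libraries left out.

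Among the 12 largest falls by the same rule were those of SOX3, TP73, WNT10A, TFAP2B, CRTAC1, EMX2, CHRNA4, CXCL14, GFRAL, HHATL and TP63. TP73, a relative of TP63, went from 17.8, 6.65 and 12.9 CPM to 0.258 and 0.388 CPM (log2 fold change of -5.20, SE 0.61, adjusted p = 0.00255), and CXCL14, a chemokine, from 15.8, 12.1 and 33.3 CPM to 1.16 and 0.776 CPM (log2 fold change of -4.37, SE 0.78, adjusted p = 0.00783). Neither gene reached 1.2 CPM in either splanchnopleure library. CRTAC1, a cartilage protein, had 17.5, 21.7 and 8.57 CPM and 0.773 and 0.259 CPM (log2 fold change of -4.90, SE 0.73, adjusted p = 0.00441), and CHRNA4, a nicotinic receptor subunit, 19.8, 2.96 and 5.14 CPM and 0.387 and 0.388 CPM (log2 fold change of -4.53, SE 0.98, adjusted p = 0.015). HHATL and GFRAL had log2 fold changes of -4.25 and -4.34 (adjusted p = 0.0159 and 0.0275). CHRNA4 and HHATL were not called by edgeR's test of splanchnopleure against somatopleure (adjusted p = 0.146 and 0.15). GFRAL (without 1 or 23) missed the threshold with 1 lateral plate library left out (adjusted p from 0.0535 to 0.079). So did CXCL14, CHRNA4, HHATL and GFRAL without splanchnopleure 6 (adjusted p from 0.0669 to 0.116) and CHRNA4, HHATL and GFRAL without the pool (adjusted p from 0.0668 to 0.123). TP73 and CRTAC1 passed with any 1 of the 5 libraries left out.

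Whether a gene sets the inner sheet apart from the outer one was asked by a direct test of splanchnopleure against somatopleure in the same fit, which shares the splanchnopleure libraries with the comparison above. Of 10640 genes, 887 were higher in the splanchnopleure (8.34%) and 537 lower (5.05%). Left out in turn, somatopleure 13, 53 and 5, splanchnopleure 6 and the pool gave 734, 933, 1578, 263 and 1107 calls. Among genes that rose from the lateral plate, the smallest adjusted p against the somatopleure was shared by SLC40A1 and MTSS1. The next smallest (0.00229) was shared by 28 genes, of which LIPC, GUCA2A and CYP24A1 had the largest fitted differences. SLC40A1, the iron exporter ferroportin, had 26.6, 26.8 and 27.6 CPM in somatopleure 13, 53 and 5 and 150.1 and 117 CPM in splanchnopleure 6 and pool (log2 difference 2.30, SE 0.17, adjusted p = 0.00142). MTSS1, an actin regulator, had 37.4, 35 and 41.3 CPM and 184 and 176 CPM (log2 difference 2.25, SE 0.15, adjusted p = 0.00142). CYP24A1, which degrades vitamin D, had 0.251, 0.546 and 0.789 CPM and 87.5 and 76.5 CPM (log2 difference 7.25, SE 0.69, adjusted p = 0.00229). In lateral plate 1, 23 and 8 it had 4, 20.9 and 12.2 CPM, between the layers. LIPC and GUCA2A had 3 and 1 counts over the somatopleure libraries, so that the splanchnopleure level was 510-fold (exact 95% interval 174 to 2480) and 247-fold (43.7 to 9810) higher. SLC40A1, MTSS1, CYP24A1, LIPC and GUCA2A passed this test with any 1 of the 5 somatopleure and splanchnopleure libraries left out. The rise of CYP24A1 from the lateral plate missed the threshold without splanchnopleure 6.

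Among genes that fell from the lateral plate and were also lower than in the somatopleure, the smallest adjusted p were those of HCRTR2, HLCS, WNT10A and TFAP2B, followed by TFAP2C, BMP7 and ZNF385C, which tied at 0.00365. HCRTR2, an orexin receptor, had 15.6, 11.1 and 8.15 CPM and 0.645 and 0.776 CPM (log2 difference -4.000, SE 0.43, adjusted p = 0.00229), and HLCS, which attaches biotin to carboxylases, 66, 68.7 and 79.3 CPM and 21.7 and 19.9 CPM (log2 difference -1.78, SE 0.17, adjusted p = 0.00229). By list, 25 of 33 endothelial genes, 34 of 89 matrix genes, 16 of 29 plasma protein genes and 10 of 22 endoderm genes were higher than in the somatopleure. Lower were 14 of 28 surface ectoderm genes and 7 of 23 limb regulators. Of the splanchnic regulators, 4 of 17 were higher and 1 lower. The higher ones were MAF (log2 difference 3.63, SE 0.64, adjusted p = 0.00996), OSR2 (log2 difference 3.72, SE 0.48, adjusted p = 0.00365), GATA4 (log2 difference 4.13, SE 0.98, adjusted p = 0.0294) and MAB21L1 (log2 difference 2.92, SE 0.68, adjusted p = 0.0267). TSHZ1 was the lower one (log2 difference -2.002, SE 0.35, adjusted p = 0.0099). HAND1 had 269.5, 292 and 466 CPM in the somatopleure, between the other tissues, and did not pass (log2 difference 0.73, SE 0.45, adjusted p = 0.307). SHH did, with 1.76, 0.683 and 0.526 CPM against 12.6 and 27.8 CPM (log2 difference 4.32, SE 0.54, adjusted p = 0.00356). GATA4 and MAB21L1 (without 13 or 53) missed the threshold with 1 somatopleure library left out (adjusted p from 0.061 to 0.0875). So did MAF, GATA4, MAB21L1 and TSHZ1 without splanchnopleure 6 (adjusted p from 0.0844 to 0.223) and GATA4 without the pool (adjusted p = 0.0979). HCRTR2, HLCS, WNT10A, TFAP2B, TFAP2C, OSR2 and SHH passed this test with any 1 of the 5 somatopleure and splanchnopleure libraries left out.

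The change from lateral plate to splanchnopleure was set against the same change in the chick by an interaction test over 17 libraries. It differed between the species in 912 of 11063 genes (8.24%), the emu change being above the chick change in 505 and below it in 407. Left out in turn, emu lateral plate 1, 23 and 8, splanchnopleure 6 and the pool gave 472, 688, 702, 230 and 889. Chick lateral plate is HH10 throughout, so the species also differ in the stage of lateral plate 1. COL3A1 rose in both birds, as the log2 fold change was 7.46 (SE 0.90) in the emu and 2.96 (SE 0.71) in the chick (difference 4.49, SE 1.02, adjusted p = 0.0156). For DCN the log2 fold change was 6.16 (SE 0.54) in the emu and 2.97 (SE 0.43) in the chick (difference 3.19, SE 0.65, adjusted p = 0.00899), and for TNC the log2 fold change was 4.47 (SE 0.39) in the emu and 1.95 (SE 0.39) in the chick (difference 2.53, SE 0.54, adjusted p = 0.0111). In these matrix genes the emu change was the larger, and 18 of 89 matrix genes lay above the chick change and 1 below. Of 33 endothelial genes 11 lay above, and of 48 cell cycle genes 1 above and 9 below. The surface ectoderm list gave 5 below of 28. COL3A1 and TNC missed the threshold without splanchnopleure 6 (adjusted p from 0.0759 to 0.102). DCN passed with any 1 of the 5 libraries left out.

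Of the 55 named genes whose change differed between the species, 8 passed in both birds in opposite directions, ISL1, CRABP1, TNNT2, CHRNA4, EPB41L1, LIMD1, LOC421441 and WDHD1. For ISL1, the log2 fold change was -2.61 (SE 0.64) in the emu and 2.40 (SE 0.57) in the chick (difference -5.01, SE 0.86, adjusted p = 0.00398, adjusted p in the chick = 0.0124). For CRABP1 the log2 fold change was 2.91 (SE 0.38) in the emu and -1.87 (SE 0.50) in the chick (difference 4.79, SE 0.62, adjusted p = 0.000886, adjusted p in the chick = 0.0232). For TNNT2 the log2 fold change was 3.57 (SE 0.72) in the emu and -2.58 (SE 0.81) in the chick (difference 6.15, SE 1.08, adjusted p = 0.00453, adjusted p in the chick = 0.0478). Of genes called in the emu whose change lay below that in the chick, SEMA3D had the smallest adjusted p, and the log2 fold change was -3.01 (SE 0.31) in the emu and 0.72 (SE 0.24) in the chick (difference -3.73, SE 0.39, adjusted p = 0.000194). For MAF, which rose in the emu, the log2 fold change was 5.005 (SE 0.54) in the emu and 0.10 (SE 0.40) in the chick (difference 4.91, SE 0.67, adjusted p = 0.001, adjusted p in the chick = 0.911). Of genes called in the emu whose change lay above, MCU, the mitochondrial calcium channel, had the smallest adjusted p, and the log2 fold change was 1.52 (SE 0.15) in the emu and -0.40 (SE 0.14) in the chick (difference 1.93, SE 0.20, adjusted p = 0.000194). It was followed by LOC421441, LAPTM4A, GSDMA and EPB41L1, with differences of 2.19, 1.18, 6.33 and 1.39. Below the chick change, SEMA3D was followed by TP73, WDHD1, LIMD1 and CRTAC1, with differences of -5.39, -1.30, -1.58 and -5.88. MYOM1, a protein of the sarcomere's M-band not called in the emu, had an adjusted p as small as that of SEMA3D and MCU, and the log2 fold change was -0.21 (SE 0.25) in the emu and 4.61 (SE 0.40) in the chick (difference -4.82, SE 0.50, adjusted p = 0.000194). Of the key regulators, HAND1, GATA4 and DUSP6 gave differences of 0.38, 1.56 and -0.58, none of which passed (adjusted p = 0.763, 0.333 and 0.241). In the interaction test ISL1, CRABP1, TNNT2, SEMA3D, MAF, MCU and LOC421441 passed with any 1 of the 5 libraries left out. So did LAPTM4A, GSDMA, EPB41L1, TP73, WDHD1, LIMD1 and CRTAC1. Within the emu, however, the calls of ISL1, TNNT2, CHRNA4 and LIMD1 did not hold in all 5 such fits.

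**Figure D5:**
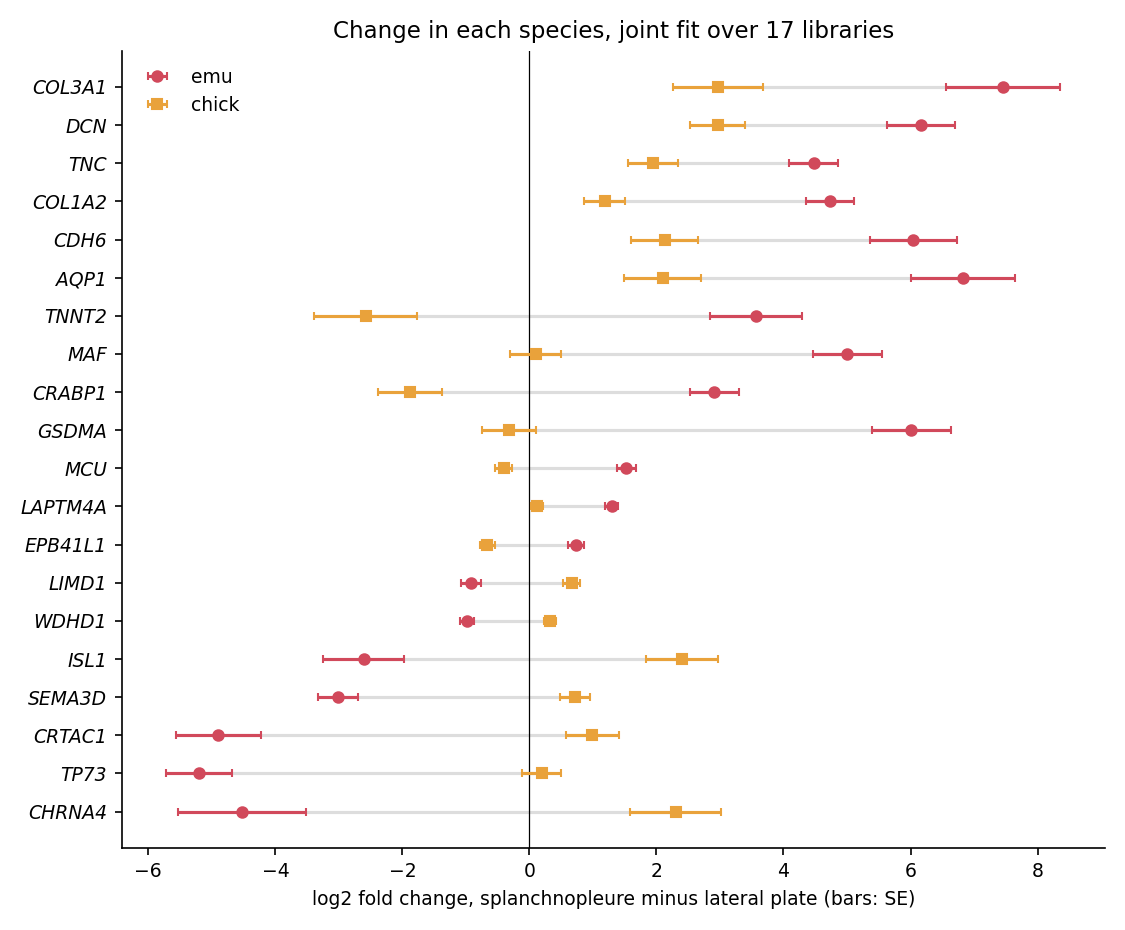
Log2 fold change from lateral plate to splanchnopleure in the emu (red circles) and the chick (orange squares) for 20 genes whose change differed between the species, with bars of 1 SE from the joint fit over 17 libraries. The matrix genes drawn, COL3A1, DCN, TNC and COL1A2, rose in both birds and more in the emu. Over the whole matrix list, 18 of 89 genes lay above the chick change and 1 below. ISL1 fell in the emu and rose in the chick.

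The splanchnopleure libraries differed from each other by group of genes. Splanchnopleure 6 was the higher in 72 of 89 matrix genes, 31 of 33 endothelial genes, all 8 smooth muscle genes and 15 of 18 Notch genes, beside 49.3% of all tested genes. The pool was the higher in 36 of 48 cell cycle genes, 45 of 58 ribosomal protein genes and 9 of 11 blood genes. With 1 library on each side these counts have no test. Both libraries lay on the same side of the lateral plate for each of the 24 genes of largest rise and fall, since the rule required it.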

How the data were processed

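RNA was measured by sequencing in emu and chick tissue. Per the labels' protocols, RNA was extracted on PicoPure columns and libraries were made from 50 ng of total RNA with Kappa reagents and 15 cycles of PCR. The deposited values are whole-number read counts per gene symbol from the authors, without normalization. STAR, featureCounts, DESeq and the chick build galGal4 are listed, with no versions or roles, in the submitters' processing notes. For emu alignments the genome is not given in the sources used, and counting by strand is not stated, so overlapping genes may share reads. Of 12338 symbols, 10037 matched current RefSeq symbols and 367 older ones.

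The counts were scaled by TMM and tested in R 4.3.3 with edgeR 4.0.16 by its two-sided quasi-likelihood test, and p-values were adjusted by Benjamini and Hochberg over every tested gene, with a threshold of 0.05. The filter filterByExpr asked for a count of 10 and a total of 15 at the least. The fit held all 8 emu early libraries, so that somatopleure added to the estimate of the spread, and the comparison of species held 17 libraries joined on symbol. Adjusted p-values in the text come from these fits. Each SE was worked back from the test, as the absolute log2 fold change divided by the square root of its F statistic. The alternatives were DESeq2 1.42.0, limma 3.58.1, other scaling and filters, and leaving out each library. The fit was tested on simulated data first.

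The members and gene lists were chosen with earlier results of these data known. Named genes are the 12 largest rises and 12 largest falls called, without overlap and with a mean log2 CPM of at least 1, key regulators, up to 4 called members of each list by smallest adjusted p, members needed to describe a pathway's roles, and the 5 smallest adjusted p in each direction of the other comparisons. Other members named to fill out a list were chosen after their values were seen. A fold against a tissue with 0 counts is a bound from 3 counts per library, and ratios on 1 to 3 counts carry exact 95% Clopper-Pearson intervals. Bounds and intervals cover counting error only. No 2 libraries of a tissue agreed within sampling noise. Some genes that belong to these lists are not reported here.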

Additional observations from a re-analysis of the deposited data

Results flagged for a closer look

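The named genes below stand out because their change from lateral plate to splanchnopleure differed between emu and chick by the interaction test of the joint edgeR fit, at an adjusted p under 0.05. Most named genes were chosen for a call in the emu or for a small adjusted p in this test, so the counts here are set by that choice, beside 8.24% of all genes tested. Of 146 named genes tested, 56 did so, and 55 of them had more than 3 counts in both tissues of both birds. STMN2, with 1 and 144 counts in the emu and 5 and 0 in the chick, is left out. Values are the emu log2 fold change minus the chick one. It was above 0 for 33 genes and below 0 for 22. In 14 genes the change passed in both birds with the same sign, in 8 with opposite signs, in 32 it passed in the emu and not in the chick, and in 1, DLL1, in the chick and not in the emu. Not every difference held with 1 emu library left out. The fit without splanchnopleure 6 holds 1 emu splanchnopleure library. Of genes above the chick change, it lost the calls of COL3A1, TNC, COL1A1, RYR2, CALD1, TPM1, AQP1, ANGPT2, STAB1, FLT4, CDH6 and KCNH5. It also lost those of DLL1, HES1, RSPO3, CTGF, LGR4, FGFRL1 and HMOX1. Of genes below, it lost the calls of BUB3, GMNN, MAD2L1, POLA1, CLDN1, ELF3, WNT10A, ETV1, NRIP1, GREB1, MYB, HHATL and HK2. Calls it kept included COL1A2, DCN, TNNT2, CRABP1, IGFBP7 and MAF above, and ISL1, SEMA3D and TP73 below.

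The emu change lay above the chick change for the matrix genes COL3A1 (4.49), COL1A2 (3.54), DCN (3.19), TNC (2.53) and COL1A1 (1.96). Contractile genes with a higher emu change were TNNT2 (6.15), RYR2 (3.43), CALD1 (1.11) and TPM1 (1.04), and vessel genes AQP1 (4.73), ANGPT2 (2.46), STAB1 (1.30) and FLT4 (1.11). Among signalling genes, CRABP1 (4.79), IGFBP7 (3.77), RSPO3 (2.95), HES1 (1.54), FGFRL1 (1.49), CTGF (1.23), LGR4 (0.81) and DLL1 (4.04) lay above, as did the transcription factor MAF (4.91). The remaining genes above were GSDMA (6.33), KCNH5 (4.16), CDH6 (3.91), CYP24A1 (3.78), GUCA2A (3.43), LOC421441 (2.19), MCU (1.93), HMOX1 (1.80), SLC40A1 (1.51), EPB41L1 (1.39) and LAPTM4A (1.18).

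The emu change lay below the chick change for the cell cycle genes BUB3 (-0.52), GMNN (-0.87), MAD2L1 (-0.68) and POLA1 (-0.83). Genes of epithelia with a lower emu change were CLDN1 (-1.59), ELF3 (-2.66), TP73 (-5.39) and WNT10A (-4.39). Ligands, receptors and their response genes below were BMP7 (-2.06), ETV1 (-1.65), SEMA3D (-3.73), NRIP1 (-1.05), CHRNA4 (-6.83) and GREB1 (-1.95), and transcription factors ISL1 (-5.01) and MYB (-1.77). The remaining genes below were CRTAC1 (-5.88), HHATL (-4.76), HLCS (-1.85), HK2 (-1.05), LIMD1 (-1.58) and WDHD1 (-1.30). The stage of lateral plate 1 differs from that of the chick lateral plate. The interaction test was also run without it, with every lateral plate library at HH10. COL1A1, TPM1, CALD1, ANGPT2, RSPO3, FGFRL1, LGR4, HMOX1, BUB3, GMNN and MAD2L1 then missed the threshold. So did CLDN1, ELF3, WNT10A, ETV1, NRIP1, MYB and HHATL (adjusted p from 0.0505 to 0.105 over these genes). The other genes listed passed. That fit also has fewer lateral plate libraries, and the part of the stage alone was not tested.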

How the results depend on the processing

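In the comparison with lateral plate, 2196 genes were called. The count stayed within 1.5 times of that under size factors (2184), no filter (2115), a stricter filter (2136), limma voom (2224), DESeq2 (2613), a fit of the 5 libraries alone (2567) and a fit without somatopleure 13 (2025). With 1 of the 5 libraries left out it ran from 353 to 1607, and against lateral plate 1 alone it was 1001. In the comparison with somatopleure, 1424 were called, 1372 to 1974 under the other settings, and 263 to 1578 with 1 library left out. In the comparison of species, 912 were called, 884 to 1337 under the other settings, and 230 to 889 with 1 emu library left out. A restriction to genes past the filter in both birds, chosen after seeing the data, gave 932. Leaving out splanchnopleure 6 gave the lowest count in each comparison. That fit has 1 splanchnopleure library, which is assumed to vary like the other groups, and the cause of the lower counts was not tested. Of 146 named genes tested, 131 were called and 69 of these were called in the same direction under every setting run for that comparison. Single gene and setting pairs in the comparison with lateral plate gave 1704 with the same outcome. A call was lost in 165 and gained in 19. In 0 pairs did a gene called in either fit reverse direction. A change of sign with no call in either fit counts here as the same outcome. Counts in the gene lists stayed within 1.5 times in 664 of such pairs and moved further in 194. No paired analysis was possible because the splanchnopleure libraries (6 and pool) share no replicate number with the lateral plate libraries (1, 23 and 8). Genes with 3 or fewer counts in a tissue have ratios with wide intervals, and a gene with no count there has only a bound.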
